A study of Mus musculus with 4 samples.

Results

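Arginine is made and broken down by a short chain of enzymes, and the cells that list 3 of them in a pair of single-cell marker tables are described here. *Ass1* encodes argininosuccinate synthase, which joins citrulline and aspartate on the way to arginine. *Arg1* encodes arginase 1, which splits arginine into ornithine and urea. *Odc1* encodes ornithine decarboxylase, which turns ornithine into putrescine, the first step of polyamine synthesis. Arginase 1 is known from hepatocytes, where it completes the urea cycle together with argininosuccinate synthase, from alternatively activated macrophages, and from group 2 innate lymphoid cells (ILC2s). ILC2s are lymphocytes without antigen receptors that respond to interleukin 33 (IL-33) through the receptor ST2 and release type 2 cytokines such as IL-13 and IL-5. Polyamines are needed in growing and dividing cells, where spermidine also serves to modify the translation factor EIF5A.

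The 3 genes were chosen by name and selected on measured values, because each had rows in the deposited tables with known contents. They are 3 of the 1679 genes in the table of cell types and 3 of the 2629 genes in the table of ILC2 subclusters. A row, called a listing here, stands for a gene whose average expression in a cluster of cells was higher than in all other cells. The listings and their shares of cells are therefore a description, with no test. The clusters were also built from the expression of the same cells, so a cluster set against the rest is not an independent comparison.

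The cells came from wild-type BALB/c male mice, 8 weeks old by the study's methods, that were injected intraperitoneally once a day for 5 days with recombinant IL-33 (rIL-33, 0.5 µg) or with PBS as the control. Lineage-negative cells (without CD3e, Ly6G, Ly6c, CD11b, CD45R, TER119 and TCRb) that carried CD127, Thy1 and ST2 were sorted from liver and lung and sequenced from the 3′ end of transcripts in droplets. Each organ gave 1 library per treatment, which makes 4 groups called PBS lung, PBS liver, rIL-33 lung and rIL-33 liver, and the tissue of several mice was pooled in each. Both tables pool the 4 libraries, so rIL-33 could not be compared with PBS nor liver with lung, and there was no replicate behind any value. The tables give neither depth nor a number of cells.

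Each listing holds a pair of shares, the percentage of the cluster's cells in which the gene had a value above 0 and the same percentage in all other cells of the table. Where a gene is called present or found in cells, a value above 0 is meant. A gene with no listing for a cluster was lower there, alike, too rare or not tested, and these cases cannot be told apart from a missing row. In each listing at least 1 of the shares was 25.2% or more in the cell type table and 25.0% or more in the subcluster table. Cluster sizes were solved from the shares, and from them the share of all cells with a gene and its mean share over the clusters without a listing. The errors after ± are standard errors that cover rounding and the solved sizes. They do not cover variation between mice.

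*Arg1* (ENSMUSG00000019987.9) lies on the minus strand at chr10:24915221-24927484 of GRCm38, the build also called mm10, and has 8 exons. *Ass1* (ENSMUSG00000076441.9) lies on the plus strand at chr2:31470207-31520672, with 16 exons. *Odc1* (ENSMUSG00000011179.8) lies on the plus strand at chr12:17544794-17551505, with 12 exons, and the small nucleolar RNA gene *Gm22748* overlaps it. All 3 are protein-coding. Reads from the 3′ end fall mainly in and near the 3′ UTR, which spans 392 bases for *Arg1*, 258 bases for *Ass1* and 336 bases for *Odc1*.

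The study followed GATA3 and AP-1 factors, so the RefSeq promoters (GRCm38.p6, 250 bases before to 50 bases after the start) were searched on both strands for GATAA, the AP-1 motif TGANTCA, the E-box CACGTG and a STAT6 motif. Promoters were found for 2 of the 3 genes, *Ass1* and *Odc1*. The *Odc1* window held 0 matches to the 4 motifs. The *Ass1* window held 1 match, an E-box at position -36 from the RefSeq start, and no other. Of 32851 promoters, 7.15% held this E-box, 25.4% GATAA, 7.81% the AP-1 motif and 6.95% the STAT6 motif. The E-box of *Ass1* is shown in capitals as the only match in the 2 promoters searched. The 30-base window around it lies at chr2:31470222-31470251 on the plus strand, after the first base of the GENCODE gene model at 31470207.
Ass1 E-box: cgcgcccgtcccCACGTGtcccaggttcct
A match is a description of letters and not a bound site.

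In the subcluster table the 3 genes had 7 listings in 7 of the 10 subclusters, which are numbered from 0. No subcluster listed more than 1 of them. *Ass1* was listed for subclusters 1 and 8, *Arg1* for subclusters 2, 6 and 9, and *Odc1* for subclusters 4 and 7. The subclusters with one of the genes held 54.0% of the ILC2s, and subclusters 0, 3 and 5, which listed none of them, held 46.1%. Each subcluster listed 4.98% to 38.0% of the table's genes, and 768 of the 2629 genes were listed for at least 2 subclusters. Whether 3 genes would share no subcluster at these rates was not tested, so the listings are not read as a separation. They compare average expression between clusters. They do not say that a cell has only 1 of the transcripts.

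**Figure D1:**
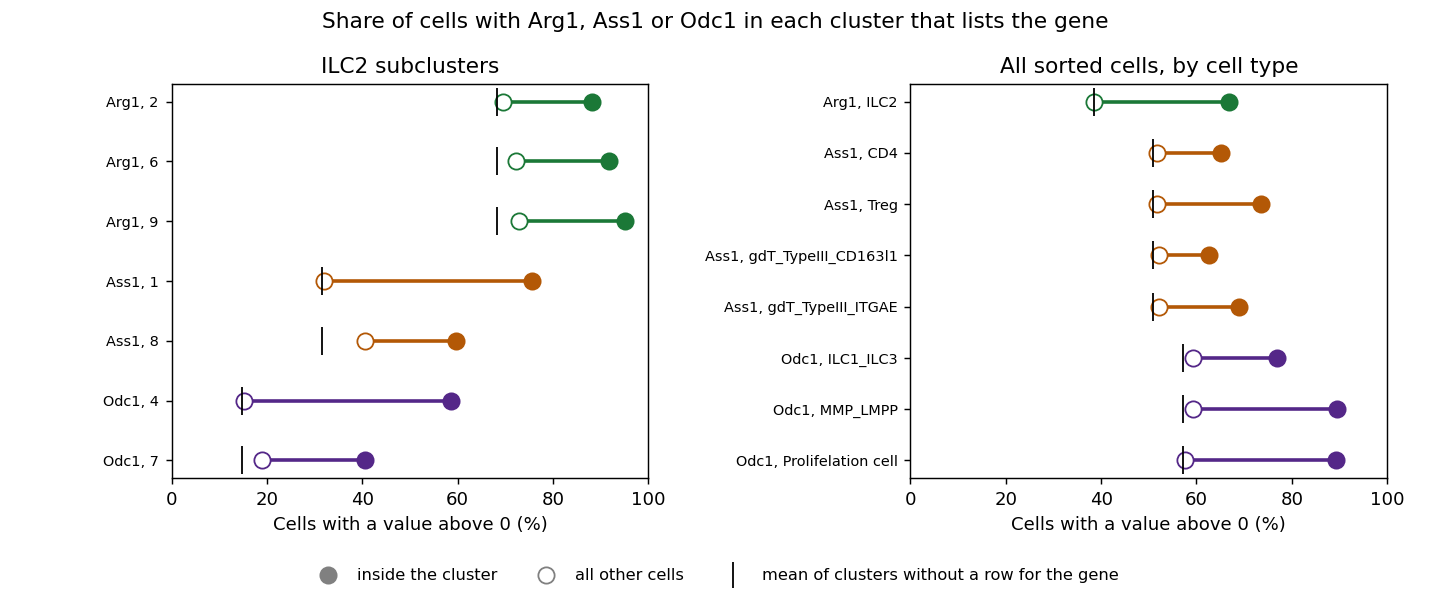
Percentage of cells above 0 for *Arg1*, *Ass1* or *Odc1* in each cluster that lists the gene (filled circles), in all other cells (open circles) and as the mean of the clusters without a listing (vertical line), for ILC2 subclusters on the left and cell types on the right. Among ILC2s, *Ass1* in subcluster 1 and *Odc1* in subcluster 4 have the widest gaps, 43.8 and 43.4 points, while *Arg1* starts from 69.5% or more in the other cells.

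*Ass1* marked subcluster 1 most widely. It had a value above 0 in 75.7% of subcluster 1 and in 31.9% of the other ILC2s, a difference of 43.8 percentage points and a ratio of 2.37. By this difference it ranked 4 among the 363 genes listed for subcluster 1, whose median difference was 15.8 points. Those 363 genes were 13.8% of all genes in the table. In subcluster 8 *Ass1* was found in 59.6% of the cells against 40.5% of the others, and ranked 125 among 253 listed genes, 9.62% of the table. The median gene of subcluster 8 differed by 18.9 points and *Ass1* by 19.1 points, so there *Ass1* was a middling gene of its list.

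*Ass1* was present in 40.7% ± 0.0190 of all ILC2s and, on average, in 31.6% ± 0.0243 of the cells of the 8 subclusters without a listing. The share in subcluster 1 was 2.39 times, and that in subcluster 8 was 1.88 times, this mean. Subcluster 1 made up 20.1% ± 0.0166 of the ILC2s and held 37.3% of those with *Ass1*. Subcluster 8, at 0.668% ± 0.0164 of the ILC2s, held 0.979% of them. The other 61.7% of *Ass1*-positive ILC2s were in subclusters that did not list the gene.

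*Arg1* was the most widespread of the 3 genes. It was present in 72.9% ± 0.0158 of all ILC2s and still averaged 68.2% ± 0.0220 over the 7 subclusters without a listing. In subcluster 2 it was found in 88.3% of the cells against 69.5% of the other ILC2s. In subcluster 6 the shares were 91.7% and 72.2%. In subcluster 9 they were 95.1% and 72.8%. The 3 differences, from 18.8 to 22.3 points, were close to each other, and the cells without *Arg1* were 11.7%, 8.30% and 4.90% of subclusters 2, 6 and 9.

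Against the mean of the subclusters without a listing, the share of *Arg1*-positive cells was 1.29 times as high in subcluster 2, 1.34 times in subcluster 6 and 1.39 times in subcluster 9. A gene found in most ILC2s leaves little room for a share to be higher, so these ratios are not on the same footing as those of *Ass1* and *Odc1*. By difference *Arg1* ranked 38 of 131 genes in subcluster 2, 47 of 190 in subcluster 6 and 18 of 199 in subcluster 9. These lists were 4.98%, 7.23% and 7.57% of the table's genes. The subclusters differed widely in size, with 18.3% ± 0.0222 of the ILC2s in subcluster 2, 3.72% ± 0.0198 in subcluster 6 and 0.611% ± 0.0206 in subcluster 9. Together they held 27.7% of the *Arg1*-positive ILC2s, for 22.7% of all ILC2s, and the other 72.3% were elsewhere.

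*Odc1* was the rarest of the 3 genes. It was present in 19.2% ± 0.0196 of all ILC2s and averaged 14.8% ± 0.0220 over the 8 subclusters without a listing. In subcluster 4 it was found in 58.6% of the cells against 15.2% of the other ILC2s, a ratio of 3.86 and a difference of 43.4 points. Subcluster 4 had one of the longest lists, with 802 genes or 30.5% of the table, and *Odc1* ranked 83 there. In subcluster 7 the shares were 40.5% and 18.9%, and *Odc1* ranked 156 of 270 genes, 10.3% of the table. Its difference of 21.6 points was below the median of 23.1 points of that list.

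Subcluster 4, with 9.23% ± 0.0113 of the ILC2s, held 28.2% of the *Odc1*-positive ones, and subcluster 7, with 1.42% ± 0.0144, held 3.0%. The listing subclusters thus held 31.2% of *Odc1*-positive ILC2s for 10.7% of all ILC2s. Relative to their size, its subclusters held more of the *Odc1*-positive cells than those of *Ass1* (38.3% in 20.7%) or *Arg1* did of theirs. Even so, 68.8% of the *Odc1*-positive ILC2s were in subclusters without a listing. The order of the genes depends on how widespread each is. *Arg1*, in 72.9% of all ILC2s, had little room to be gathered.

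**Figure D2:**
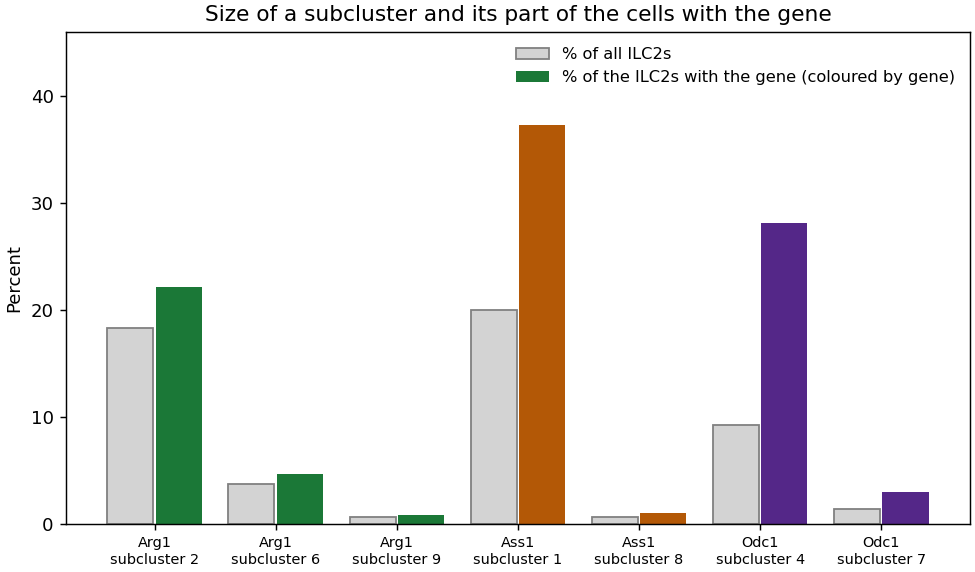
Size of each listing subcluster as a percentage of all ILC2s (grey bars) beside its percentage of the ILC2s with the gene (coloured bars). Subcluster 1 holds 20.1% of ILC2s and 37.3% of those with *Ass1*, and subcluster 4 holds 9.23% and 28.2% of those with *Odc1*, while the bars of *Arg1* in subcluster 2 are closer, 18.3% and 22.2%. *Arg1* is in 72.9% of all ILC2s, which limits how far its bars can differ.

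How often the transcripts meet in 1 cell cannot be read from pooled shares, apart from limits. Since 72.9% of ILC2s had *Arg1* and 40.7% had *Ass1*, at least 13.6% and at most 40.7% had a value above 0 for both. For *Odc1* the lower limit was 0 with either gene and the upper limit was 19.2%. These limits count values above 0. RNA released from other cells can also give such values, and its part was not tested.

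The wider pathway was described with a list of 48 genes of arginine synthesis and breakdown, polyamines, hypusine (the spermidine-derived residue of EIF5A), proline and amino acid transport. Among ILC2s 13 of the 48 had at least 1 listing, 25 listings in all. By group these were 1 of 7 synthesis genes, 1 of 10 breakdown genes, 6 of 14 polyamine genes, 2 of 3 hypusine genes, 0 of 6 proline genes and 3 of 8 transport genes. *Ass1* and *Arg1* were the only listed genes of their groups. The tables hold listed genes only, so no share of all measured genes can be set beside these counts. *Asl*, whose product releases arginine in the step after *Ass1*, *Arg2*, the mitochondrial arginase, and the nitric oxide synthases *Nos1*, *Nos2* and *Nos3* had no row in either table.

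Both enzymes that act after *Odc1* to build spermidine and spermine were listed beside it in subcluster 4. This subcluster listed *Srm*, the spermidine synthase, in 53.8% of its cells against 13.7% of the others. It also listed *Sms*, the spermine synthase, in 90.0% against 58.1%. *Eif5a*, which carries hypusine, was in 99.9% of its cells against 92.2%, and *Slc7a5*, a carrier of large neutral amino acids, in 27.2% against 4.70%. With *Odc1* that made 5 of the 13 listed pathway genes, 38.5%, where 30.5% of all genes in the table were listed for subcluster 4. Their median difference of 31.9 points was below the 34.1 points of the whole list, so the pathway genes were not set apart from the other genes of the subcluster by size.

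Subcluster 7, the other *Odc1* subcluster, listed *Paox*, which oxidises acetylated polyamines, in 29.0% of its cells against 8.50%. Subcluster 1 listed *Sms* beside *Ass1*, in 76.7% against 57.1%. Subclusters 2, 6 and 8 each listed 1 pathway gene, the member already described. Subcluster 9 listed 4 of the 13, 30.8%, against 7.57% of all genes. Besides *Arg1* these were *Sat1*, which acetylates spermidine and spermine for export or breakdown, in 77.8% against 62.5%, the amino acid carrier *Slc7a8* in 76.5% against 58.9%, and its partner chain *Slc3a2* in 85.2% against 76.5%. Subcluster 9 is the smallest of all, so its shares rest on the fewest cells.

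Among the subclusters without *Arg1*, *Ass1* or *Odc1*, the carrier *Slc7a8* was listed for subcluster 0, in 83.3% against 49.9%, and subcluster 3, in 79.6% against 55.4%. *Slc3a2* was listed there too, in 80.4% against 75.1% and in 79.4% against 76.1%, and *Mat2a*, which makes S-adenosylmethionine, was in 44.3% of subcluster 0 against 40.8%. The arginine carriers *Slc7a1*, *Slc7a2*, *Slc7a3*, *Slc7a6* and *Slc7a7* had no row in the subcluster table. Subcluster 5 listed *Sat1*, *Slc3a2*, *Dhps* and *Mat2a*, 30.8% of the 13 against 38.0% of all genes, with a lower share of cells inside than outside in all 4. *Sat1*, for example, was in 22.2% of its cells against 64.2%, and *Slc3a2* in 43.2% against 77.9%. The gene *Dhps*, for the enzyme that starts hypusine formation, was in 13.2% against 35.2%, and *Mat2a* in 23.5% against 42.5%. The median difference of the 4 genes was -28.35 points, and that of all 1000 genes listed for subcluster 5 was -21.3 points. A lower share inside was thus usual in that list and not particular to pathway genes. A listing stands for higher average expression, but the fold changes behind it were not used here. Whether average expression of the 4 genes was higher or lower in subcluster 5 was therefore not examined.

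**Figure D3:**
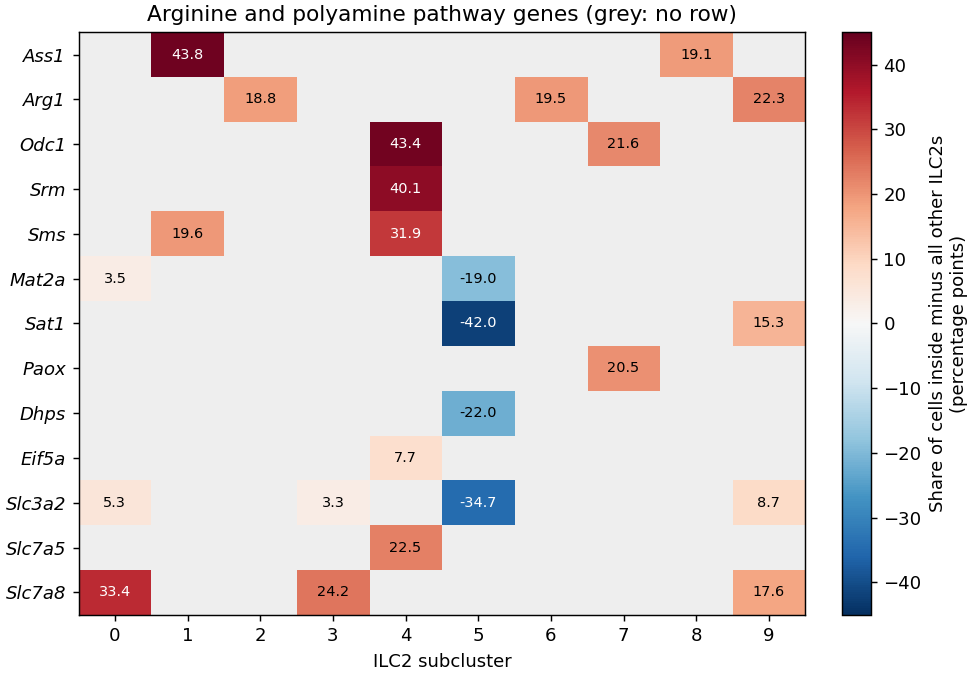
Difference in the share of cells, inside a subcluster minus all other ILC2s (percentage points, colour and printed value), for the 13 pathway genes with a listing (rows) in the 10 subclusters (columns), with grey for no listing. *Ass1*, *Arg1* and *Odc1* share no column, where each subcluster listed 4.98% to 38.0% of all genes. The polyamine genes *Srm* and *Sms* stand with *Odc1* in subcluster 4. All 4 values of subcluster 5 are below 0, as is the median of all genes it listed, -21.3 points.

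Markers of dividing cells were listed with *Odc1* in subcluster 4 but not in subcluster 7. Of 12 proliferation genes, subcluster 4 listed 11, all but *Birc5*, among them *Mki67* in 54.7% of its cells against 15.0% and *Stmn1* in 77.2% against 9.80%. Subcluster 7 listed 0 of the 12. Of all genes in the table, subcluster 4 listed 30.5% and subcluster 7 listed 10.3%, so a count of 0 of 12 in subcluster 7 is near its share. Among the *Ass1* and *Arg1* subclusters the counts were 1 in subclusters 1, 2 and 8, 2 in subcluster 6 and 0 in subcluster 9, from *Hmgb2* and *Top2a* alone. These subclusters listed 4.98% to 13.8% of all genes, so their low counts are not read as a lack of dividing cells. The part of dividing cells in the *Odc1* listing of subcluster 4 was not tested.

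Since *Arg1* and *Ass1* are also hepatocyte genes and *Arg1* a macrophage gene, lists for those cells were examined. Among the listings of ILC2 subclusters 0 of 11 hepatocyte genes, 0 of 11 macrophage and monocyte genes and 0 of 6 lung epithelium genes had a row, and *Alb*, *Apoa1*, *Lyz2* and *Sftpc* were among those without one. A gene equally rare in every subcluster would have no row either. Of 7 T cell genes, the subclusters with one of the arginine genes listed *Trbc2* (1, 2 and 6), *Cd3g* (6) and *Trbc1* (7), with differences of 5.40 to 13.7 points. Subcluster 5, which listed none of the arginine genes, listed *Cd3e* in 32.0% of its cells against 4.70%, *Trdc* in 25.6% against 7.0% and *Cd3g* in 39.5% against 32.6%. It also listed *Trbc1*, with a lower share inside than the 81.0% outside, a difference of -36.0 points. Values above 0 for T cell genes were not rare among the cells kept as ILC2s. *Trbc2* was found in 81.8% of all ILC2s, *Trbc1* in 79.6%, *Cd3g* in 32.9%, *Trdc* in 7.72% and *Cd3e*, part of the sorting gate, in 5.76%. The part of T cells in the listings of *Arg1*, *Ass1* and *Odc1* was not tested.

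The 12 ILC2 markers were set beside the label ILC2. *Il7r*, which encodes CD127, was found in 97.8% of all ILC2s and *Il1rl1*, which encodes ST2, in 89.2%. Both proteins were part of the sort, so these genes are no independent check of the label. *Gata3* was found in 90.9%, *Rora* in 90.2%, *Il2ra* in 76.4%, *Klrg1* in 68.9% and *Icos* in 65.7%. The other markers were lower, with *Areg* in 39.6%, *Il13* in 37.0% and *Il5* in 28.4%. *Thy1* and *Bhlhe41* had no row in the subcluster table, which gives no share for them. *Klrg1*, an inhibitory receptor of activated ILC2s, was listed for both *Ass1* subclusters and for 2 of the 3 *Arg1* subclusters. It was in 92.1% of subcluster 1, 85.4% of subcluster 8, 85.6% of subcluster 2 and 91.9% of subcluster 6. The shares in the other ILC2s were 63.1% to 68.8%, and these subclusters listed 4.98% to 13.8% of all genes. It was listed for neither *Odc1* subcluster. Other markers had other listings, *Gata3*, *Il1rl1* and *Il2ra* for subclusters 0 and 3, *Icos* for 3, *Rora* for 3 and 7 and *Il7r* for 9. Whether any marker goes with the arginine genes was not tested.

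Effector genes under GATA3 were set beside the 3 genes, and 4 of the 5 subclusters that listed *Il13* were the *Ass1* and *Odc1* subclusters. *Il13* was found in 52.8% of subcluster 1 and 69.7% of subcluster 8, the *Ass1* subclusters, and in 62.1% of subcluster 4 and 60.5% of subcluster 7, the *Odc1* subclusters. The other was subcluster 2, an *Arg1* subcluster, at 56.5%. The mean over the subclusters without an *Il13* listing was 17.8%, and that group includes subclusters 6 and 9, which listed *Arg1*. Each subcluster with *Il13* thus listed 1 of the 3 arginine genes, but so did 7 of all 10 subclusters. Listings of *Arg1* and *Il13* coincided in 1 subcluster. Whether the listings of *Il13* and the arginine genes are linked was not tested.

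*Il5*, a type 2 cytokine for eosinophils, was listed for subcluster 7 with *Odc1*, in 46.5% against 28.1%, and for subcluster 9 with *Arg1*, in 42.0% against 28.3%. *Areg*, a growth factor of the epidermal growth factor family, was listed for subcluster 7, in 62.0% against 39.2%, and for subcluster 8 with *Ass1*, in 57.3% against 39.5%. It was also listed for subcluster 3, which had none of the 3 genes. *Gata3* and *Il1rl1* were listed for subclusters 0 and 3, which listed none of the 3 genes and 11.4% and 9.01% of all genes. *Gata3* was 3.7 and 4.6 points higher there than in the other ILC2s, and *Il1rl1* 9.6 and 9.2 points. Both were found in most ILC2s, and over the subclusters without a listing their means were 88.6% and 83.9%. Whether their listings avoid those of *Arg1*, *Ass1* and *Odc1* was not tested.

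**Figure D4:**
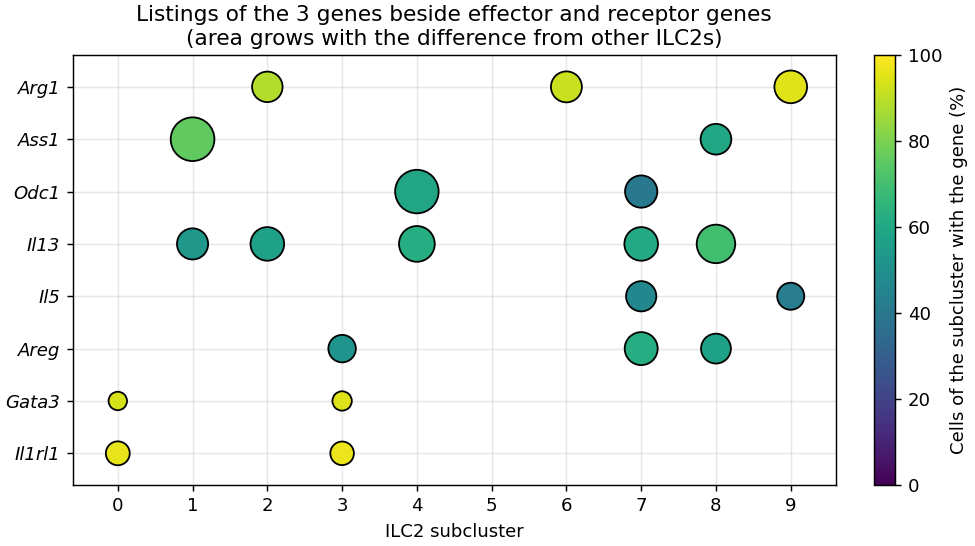
Listings of *Arg1*, *Ass1* and *Odc1* and of 5 genes the study followed (rows) in the ILC2 subclusters (columns), where the colour gives the share of the subcluster's cells with the gene (%) and the area of a circle grows with the difference from all other ILC2s. *Il13* circles stand in subclusters 1, 2, 4, 7 and 8, each with 1 arginine gene, while *Gata3* and *Il1rl1* stand in subclusters 0 and 3, which have none. Of all 10 subclusters, 7 have an arginine gene, and a link between the listings was not tested.

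Genes with exactly the same listings as each of the 3 were ranked by how near their differences in share were. For *Arg1* there were 6 others, and the nearest was *Plin2*, a coat protein of lipid droplets, with a mean distance of 3.67 points over 3 subclusters. *Plin2* was found in 75.0% of subcluster 2, 82.2% of subcluster 6 and 75.3% of subcluster 9, against 55.7% to 59.1% of the other cells. *Znrf1* followed at 3.73 points, with shares of 92.2% to 95.2% inside. *Lgmn*, *Rgs10* and *Snx20* came next, at 3.93, 4.33 and 5.10 points.

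For *Ass1* there were 35 others over its 2 subclusters, and the nearest was the G protein subunit *Gna15* at 5.90 points, in 78.8% of subcluster 1 and 73.0% of subcluster 8. *Glipr2*, *Slc25a24*, *Qrfp* and *Sqstm1* followed at 7.20 to 12.9 points. For *Odc1* there were 52 others, and the nearest was the transcription factor *Myb* at 1.60 points. *Myb* was in 49.2% of subcluster 4 against 5.10% of the others and in 28.0% of subcluster 7 against 8.90%. *Isyna1*, *Adk*, *Parp1* and *Mrpl17* followed at 1.75 to 3.80 points. More genes shared the listings of *Odc1* than those of *Arg1*, and the lists of its subclusters were also longer.

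In the table of all sorted cells the 3 genes had 8 listings in 8 of 21 cell types, again with no more than 1 in a type. Each of the 21 types listed 1.67% to 30.6% of the table's genes. The 8 types with a listing held 58.3% of the cells, most of them in ILC2. *Arg1* was listed for ILC2 alone, *Ass1* for 4 T cell types and *Odc1* for 3 types. The shares of this table are on another scale than those of the subcluster table. *Cd3e* was above 0 in 83.5% of all sorted cells although the sort removed cells with CD3e, and *Odc1* in 59.4% here but in 19.2% of the ILC2s there. The kind of value behind this table is not given in the sources used here, so levels were compared only within it and a value above 0 is not read as a detected transcript.

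*Arg1* had a value above 0 in 66.8% of ILC2 cells against 38.6% of all other sorted cells, a difference of 28.2 points and a rank of 42 among 136 listed genes, which were 8.1% of the table. ILC2 cells made up 43.2% ± 0.0133 of the cells and 56.9% of those above 0 for *Arg1*, and over all cells the share was 50.8% ± 0.0209. The ILC2 type listed 8 of its 12 own markers, 0 of 11 hepatocyte genes, 0 of 11 macrophage and monocyte genes and 1 of 6 lung epithelium genes, *Epcam*, in 47.5% against 36.9%. *Arg1* was not listed for the type named Macrophage. Among pathway genes ILC2 also listed *Eif5a*, in 98.0% against 93.2%, and *Slc7a8*, in 73.3% against 46.3%.

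*Ass1* was above 0 in 73.6% of Treg (regulatory T) cells against 51.8% of the other cells, and in 65.2% of CD4 cells against the same 51.8%. It was also above 0 in 68.9% of gdT_TypeIII_ITGAE cells and in 62.7% of gdT_TypeIII_CD163l1 cells, both γδ T cell types, against 52.1%. The lists of these types held 8.93%, 7.8%, 11.7% and 11.4% of the table's genes in the same order. In Treg and CD4 *Ass1* ranked 5 of 150 and 7 of 131 by difference, whereas the median listed gene had a lower share inside than outside, by -0.400 and -8.60 points. Of 7 T cell genes, CD4 and Treg listed 6 each, gdT_TypeIII_ITGAE 5 and gdT_TypeIII_CD163l1 4, and none of these types listed a hepatocyte or macrophage gene.

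The 4 types together held 7.89% of all cells and 10.2% of those above 0 for *Ass1*. Over all sorted cells *Ass1* was above 0 in 52.3% ± 0.0142, and the mean of the 17 types without a listing was 50.9% ± 0.0163. ILC2 was among those 17, so the *Ass1*-rich subcluster 1 had no counterpart in a listing of the ILC2 type as a whole. No other gene had the same set of listings as *Ass1* in this table.

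*Odc1* was above 0 in 89.3% of the type spelled Prolifelation cell against 57.5% of the other cells, in 89.4% of MMP_LMPP cells against 59.3% and in 77.0% of ILC1_ILC3 cells against 59.3%. The Prolifelation cell list was 30.6% of the table's genes, the MMP_LMPP list 24% and the ILC1_ILC3 list 13.4%. *Odc1* ranked 334 of 513, 198 of 403 and 130 of 225 in them, within the lower part of the first list and near the middle of the others. Prolifelation cell listed 12 of the 12 proliferation genes, MMP_LMPP listed *Stmn1* and ILC1_ILC3 listed none. MMP_LMPP also listed *Itgam*, which encodes CD11b, and ILC1_ILC3 listed *Trf* of the hepatocyte list.

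The 3 types held 7.21% of the cells and 10.7% of those above 0 for *Odc1*, and over the 18 types without a listing the mean was 57.2% ± 0.0178. *Tpi1*, a glycolytic enzyme, was the only other gene with the same 3 listings, in 93.6% of Prolifelation cell, 91.9% of MMP_LMPP and 77.0% of ILC1_ILC3, at a mean distance of 6.07 points. *Srm* was listed beside *Odc1* in MMP_LMPP, in 92.7% against 56.1%. Of the whole pathway list, 10 of 48 genes had a row in this table, with 19 listings. No share of all measured genes can be set beside that count.

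Genes of arginine breakdown other than *Arg1* were listed for the type Endothelium cell, namely *Ddah2*, whose product clears methylated arginine, in 90.8% against 28.7%, and *Gatm*, which starts creatine synthesis from arginine, in 56.2% against 16.2%. *Slc7a1*, the main cationic amino acid carrier, was listed for ILC2_2 alone, in 56.0% against 48.0%. ILC2_2 listed 11.9% of the table's genes and none of *Arg1*, *Ass1* and *Odc1*. Only 8 of the 21 types listed one of these, so the place of *Slc7a1* is not read as a separation.

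Of the genes the study followed, the ILC2 type, the only type with *Arg1*, listed all 5, with *Il13* in 32.4% against 16.6% and *Il5* in 33.7% against 22.3%. Among the *Ass1* types, Treg and gdT_TypeIII_CD163l1 listed *Areg*, in 45.5% and 48.8% of their cells against 44.0% and 43.9%. The *Odc1* types listed none of the 5. No cell type listed *Il13* together with *Ass1* or *Odc1*. *Il13* was listed for only 2 of the 21 types, Basophil and ILC2, *Ass1* for 4 and *Odc1* for 3, so few shared types were possible.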

How the data were processed

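Reads of liver and lung cells were mapped to mm10 by the authors in Cell Ranger, and cells were clustered in Seurat and compared cluster against all other cells with all 4 libraries pooled. The deposited shares of cells with a value above 0 are fractions, inside and outside a cluster, to 3 decimals, printed here as percent. The deposited tables also hold log fold changes and p-values, the study's own comparisons, which were not used. Members and gene lists were chosen with earlier results of these data known. Cluster sizes were solved by least squares over 1045 and 768 genes listed for at least 2 clusters, and summed to 100.1% and 100.2%. The root mean square of the residuals was 0.0275 and 0.0266 points, with 0.0289 points from rounding alone. Scripts (Python 3.11.15, pandas 2.3.3, numpy 2.4.6) were tested on simulated data. Named were the members, listed pathway genes, up to 5 genes with the same listings and the nearest differences, genes the study followed, and markers a result touched. Gene positions came from GENCODE. Other fits of size, stricter listings and shorter gene lists were tried as alternatives. Doublets could not be examined in tables without cells. No p-value was computed, since cells are not replicates.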

Additional observations from a re-analysis of the deposited data

How the results depend on the processing

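Of 93 alternative values, 89 stayed within the limits set for a change and 4 moved. Some could not move, such as the *Arg1* share of all sorted cells from its largest listing cluster, since ILC2 alone listed *Arg1*. With the largest listing cluster alone, the share of all sorted cells was 52.2% for *Ass1* and 59.5% for *Odc1*. Without the transport and hypusine groups, 8 pathway genes had a listing among ILC2 subclusters and 6 among cell types, which follows from the shorter list. With only listings whose share was at least 10 points higher inside, 9 of 13 pathway genes remained among subclusters and 8 of 10 among cell types. These falls were within the limit set for counts. The tables hold neither depth nor cell numbers, so no counting error was computed, which matters most for the smallest subclusters, 8 and 9. No paired analysis was possible because no value was split by library and every group had only 1.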
